A study of Mus musculus with 6 samples.

Results

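The 10 genes described here encode the machinery that takes a cell through the G1 phase of its cycle: the D-type cyclins (Ccnd1, Ccnd2, Ccnd3), the E-type cyclins (Ccne1, Ccne2), their kinases (Cdk4, Cdk6 and Cdk2), the inhibitor p27 (Cdkn1b) and the retinoblastoma protein (Rb1). They were taken by name from the 54146 genes counted, with earlier results of these data known, and all 10 were among the 13120 that passed the filter on low counts. Growth factors raise D-type cyclins, which bind CDK4 or CDK6 and start the phosphorylation of the retinoblastoma protein. E-type cyclins with CDK2 complete it, which frees E2F transcription factors to switch on the genes of DNA synthesis. Inhibitors of the INK4 family bind CDK4 and CDK6, while p27 and its relative p21 bind complexes of cyclin and kinase. In fibroblasts this switch decides whether a cell keeps dividing or leaves the cycle, and cyclin D1 is its best-known link to serum growth factors.

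Transcript levels came from the immortal fibroblast line NIH/3T3, of mouse embryo origin and labelled as Swiss albino, grown in DMEM with foetal bovine serum. The 3 groups were wild-type cells (WT) and a pair of Mki67-/- clones, knockouts of the gene of Ki-67, a protein that marks dividing cells, each with 2 libraries of ribosomal-RNA-depleted total RNA. Each knockout line is 1 clone, so the loss of Ki-67 and other differences between clones cannot be told apart within a clone, and how the clones were made was not given in the sources used here. Whether libraries of a group are separate cultures is not in the labels. The p-values therefore measure the spread between these libraries alone, which may be technical.

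The smallest library, WT replicate 1, held 3873249 gene counts and the largest, clone 1 replicate 1, held 19678782. Counting error is therefore largest in WT. Mki67, on chromosome 7 like Ccnd1 and Ccne1, had 49.1 and 55.1 CPM (counts scaled to a common library total, with library sizes adjusted by TMM) in WT and 4.24 to 7.69 CPM in the 4 knockout libraries, a log2 fold change of −3.35 ± 0.18 (SE; edgeR adjusted p = 1.12e-08). The protocol text names 4T1, an epithelial tumour line, but all 6 epithelial markers stayed below 1 CPM in every library, and Epcam had 0 counts. The summed level of 8 fibroblast markers was 8427 to 9220 CPM (WT), 6514 to 7008 CPM (clone 1) and 7381 to 7460 CPM (clone 2), with Lum at 0. Vim, at 5331 and 5393 CPM in WT, made up most of that sum and fell by 0.60 (adjusted p = 0.00302). Thy1 fell by 1.03 (adjusted p = 5.74e-06), Col1a1 rose by 0.75 (adjusted p = 8.19e-04), and Dcn fell from 14 and 81 counts in WT to 0 to 2 in the knockout libraries (adjusted p = 5.27e-07). Clone 2 stood apart in smooth muscle markers, whose 4 genes summed to 155 to 166 CPM against 820 to 1047 CPM in WT and 1033 to 1050 CPM in clone 1. Nearly all of that sum was Acta2, with means of 160, 912 and 1029 CPM in that order. Tagln fell by 4.62 in clone 2 (adjusted p = 1.38e-07) and by 0.62 in clone 1 (adjusted p = 0.0322). Skeletal muscle markers summed to 33.1 to 35.1 CPM in clone 1, 8.95 to 9.37 CPM in WT and 11.04 to 11.5 CPM in clone 2, with the defining factors Myod1, Myog and Myf5 at 0. Endothelial markers summed to at most 4.504 CPM (Kdr at 0), adipocyte markers to at most 2.47 CPM and leukocyte markers to 35.8 to 45.2 CPM in all libraries, with Adgre1 at 0. Within the leukocyte sum Csf1r rose from 5.43 and 3.69 CPM in WT to 17.3 to 22.5 CPM (knockout mean 2.17, adjusted p = 3.62e-06), and Cd14 fell by 0.54 (adjusted p = 0.00834). The part of these differences in the results on G1 genes was not tested.

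Of the 10 genes, 5 passed the test of the mean over both clones against WT, as did 34.8% of all genes tested. Cdk6, Ccnd2 and Cdkn1b rose and Cdk4 and Ccnd1 fell, while Ccnd3, Ccne1, Ccne2, Cdk2 and Rb1 did not pass. The share is to be read against that background, and the median log2 fold change of the 10 was 0.04 (0.0049 over all genes tested). The kinase genes Cdk4 and Cdk6 changed in opposite directions in both clones, and they are the members whose calls in the knockout mean held in all 19 alternative analyses. In bulk RNA, fewer cells in a phase of the cycle and less RNA per cell cannot be told apart.

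The promoters of Cdk4 and Cdk6 are shown because these genes moved most, and in opposite directions. RefSeq's table for GRCm38.p6 held windows of 300 bases for 6 of the 10 genes (Ccnd3, Ccne1, Cdk2, Cdk4, Cdk6 and Cdkn1b), each from 250 bases before to 50 bases after a transcript start. Both windows lie on the plus strand, and capitals mark the E-box CACGTG, a word that MYC and related factors can bind.
Cdk4, chr10:127063285-127063584: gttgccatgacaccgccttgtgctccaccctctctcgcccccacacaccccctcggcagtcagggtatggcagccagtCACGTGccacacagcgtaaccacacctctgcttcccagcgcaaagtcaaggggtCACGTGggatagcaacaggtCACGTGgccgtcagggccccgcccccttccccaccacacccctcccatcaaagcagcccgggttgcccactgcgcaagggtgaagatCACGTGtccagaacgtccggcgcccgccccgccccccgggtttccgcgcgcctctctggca
Cdk6, chr5:3343643-3343942: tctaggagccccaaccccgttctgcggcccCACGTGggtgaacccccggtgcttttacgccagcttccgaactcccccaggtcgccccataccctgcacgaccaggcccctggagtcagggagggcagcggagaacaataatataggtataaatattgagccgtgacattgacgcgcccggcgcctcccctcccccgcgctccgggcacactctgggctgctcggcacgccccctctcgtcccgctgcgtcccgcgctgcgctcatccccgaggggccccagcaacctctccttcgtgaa
The Cdk4 window holds the E-box 4 times, beginning 172, 118, 98 and 11 bases before the start. The Cdk6 window holds it once, 220 bases before the start of that window's transcript. That window lies inside the Cdk6 gene, whose annotated first base is 3341485, so its start differs from the gene's first base. Among 32544 distinct windows of this length, 7.17% held the word at least once and 8 windows held it 4 or more times. The other words searched on both strands were E2F (TTTGGCGC, TTTCGCGC, TTTGCCGC and TTTCCCGC, in 2.28% of windows), the cyclic AMP response element (TGACGTCA, in 1.80%) and AP-1 (TGACTCA and TGAGTCA, in 5.19%). Of these, only an E2F word in the Cdk2 window, 140 bases before the start, was found among the 6 genes. A match describes letters and shows no binding.

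Cdk4 encodes the main kinase partner of D-type cyclins in most cells and was by far the most abundant of the 10 transcripts. It lies on chromosome 10 (127063534 to 127067920 in GRCm38, ENSMUSG00000006728). Its level was 1182 and 964 CPM in WT, 639 and 577 in clone 1 and 645 and 688 in clone 2. All 4 knockout libraries lay below both WT libraries; 24.7% of all genes tested did so. The log2 fold change was −0.75 ± 0.12 in the knockout mean (edgeR adjusted p = 3.80e-04), −0.82 ± 0.14 in clone 1 (adjusted p = 8.40e-04) and −0.69 ± 0.14 in clone 2 (adjusted p = 0.00343). The clone 2 call alone was lost without clone 2 replicate 1 (−0.65, adjusted p = 0.0656). Tspan31, a tetraspanin gene that overlaps Cdk4 on the opposite strand, also fell, by 0.33 in log2 terms (knockout mean, SE 0.11, adjusted p = 0.0373). It was called in clone 1 (−0.38, adjusted p = 0.0412) and not in clone 2 (−0.27, adjusted p = 0.138). The median of genes within 5 Mb of Cdk4 was −0.34 in the knockout mean.

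Cdk6 encodes the other kinase that D-type cyclins activate, and its transcript rose. The gene lies on chromosome 5 (3341485 to 3531008, ENSMUSG00000040274). Its level was 23.3 and 30.4 CPM in WT, 39.9 and 50.1 in clone 1 and 62.1 and 52.8 in clone 2. Every knockout library exceeded both WT libraries, as was the case for 25.1% of all genes tested. The log2 fold change was 0.89 ± 0.16 in the knockout mean (adjusted p = 7.34e-04), 0.71 ± 0.17 in clone 1 (adjusted p = 0.00706) and 1.06 ± 0.17 in clone 2 (adjusted p = 5.78e-04). Without clone 1 replicate 2, the clone 1 value was 0.53 and was not called (adjusted p = 0.0759). No difference between clones passed the test (clone 2 minus clone 1 0.36, 95% interval 0.01 to 0.70, adjusted p = 0.297).

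Per exonic length, which merges all annotated exons of a gene, Cdk6 stayed a small fraction of Cdk4 in every library. That fraction was larger in the knockout libraries, and its size depends on the lengths used. The ratio of Cdk6 to Cdk4 per length was 0.00459 and 0.00731 in WT, 0.0145 and 0.0202 in clone 1, and 0.0224 and 0.0178 in clone 2. The groups WT and knockout did not overlap. This had to follow, as Cdk6 lay higher and Cdk4 lower in all 4 knockout libraries, so it is no separate result. The mean log2 ratio was 1.67 higher in the knockout libraries. The exact two-sided permutation test gave p = 0.0667 (0.0667 adjusted over 2 such tests). This is the smallest p that 2 against 4 libraries allow, so the threshold could not be reached. Both such tests took the 4 knockout libraries as separate, though they are 2 libraries from each clone. The sum of both kinases was 299 and 365 RPKM (TMM-scaled CPM per kilobase of exon) in WT and 181 to 216 RPKM in the knockout libraries. It followed Cdk4.

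**Figure D1:**
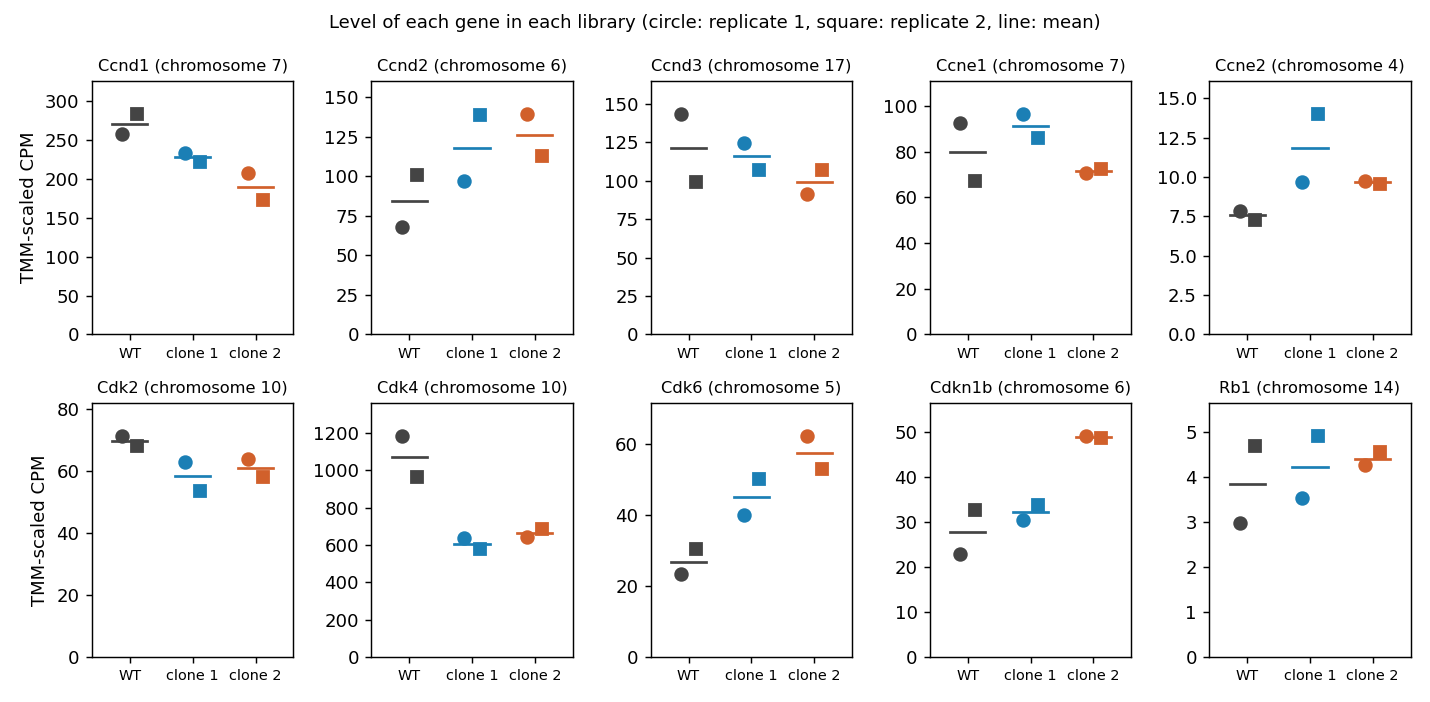
TMM-scaled CPM of each of the 10 genes (vertical axes from 0, each panel with its own scale) in the WT, clone 1 and clone 2 libraries; circles are replicate 1, squares replicate 2 and lines the mean of 2. Cdk4 lies at 577 to 688 CPM in the knockout libraries against 964 and 1182 CPM in WT, Cdk6 lies higher in each knockout library, and Cdkn1b stands out in clone 2.

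Among the D-type cyclins, Ccnd1 fell, Ccnd2 rose and Ccnd3 did not pass the test. Ccnd1, the gene of cyclin D1 (chromosome 7, 144929931 to 144939925, ENSMUSG00000070348), had 258 and 284 CPM in WT, 234 and 222 in clone 1 and 208 and 173 in clone 2. Both clones lay below WT without overlap, as was the case for 24.7% of all genes tested. Clone 2 also lay below clone 1, a separation not counted over all genes. The fall passed in clone 2 (−0.51 ± 0.13, adjusted p = 0.0118) and not in clone 1 (−0.25 ± 0.13, adjusted p = 0.165), but clone 2 minus clone 1 did not pass either (−0.26, 95% interval −0.54 to 0.02, adjusted p = 0.372). The value for the knockout mean, −0.38 ± 0.11 (adjusted p = 0.0188), lost its call on leaving out WT replicate 2 (−0.30), clone 1 replicate 2 (−0.37) or clone 2 replicate 2 (−0.33), and with 2 groups in place of 3 (adjusted p = 0.0597). Leaving out clone 2 replicate 2 ended the clone 2 call (−0.40, adjusted p = 0.169).

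Ccnd2, the gene of cyclin D2 on chromosome 6 (127125162 to 127152193, ENSMUSG00000000184), had 68.1 and 101 CPM in WT, 97.2 and 139 in clone 1 and 139 and 113 in clone 2. WT replicate 2 overlapped clone 1 replicate 1, so the groups did not separate fully. The rise was 0.51 ± 0.17 in the knockout mean (adjusted p = 0.0364), 0.55 ± 0.20 in clone 2 (adjusted p = 0.0495) and 0.46 ± 0.20 in clone 1, where it did not pass (adjusted p = 0.0898). In the mean, leaving out WT replicate 1, clone 1 replicate 2 or clone 2 replicate 1 ended the call, at 0.27, 0.36 and 0.42 in that order (adjusted p = 0.142, 0.122 and 0.106), as did the fit with 2 groups (0.51, adjusted p = 0.0678). In clone 2 it was lost in 9 of 18 alternatives, among them those that left out WT replicate 1, clone 2 replicate 1 or clone 2 replicate 2 (0.32, 0.39 and 0.69 in that order, adjusted p = 0.119, 0.320 and 0.0543). In clone 1 it was gained on leaving out WT replicate 2 or clone 1 replicate 1 (0.80 and 0.70, adjusted p = 3.60e-05 and 0.0248).

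Ccnd3, the gene of cyclin D3 on chromosome 17 (47505051 to 47599691, ENSMUSG00000034165), had 143 and 99.0 CPM in WT, 125 and 107 in clone 1 and 91.6 and 107 in clone 2. The WT libraries spanned the clone 1 values, and the change in the mean was −0.16 (95% interval −0.47 to 0.15, adjusted p = 0.423). Only without WT replicate 2 was it called, at −0.41 in the mean (adjusted p = 0.0153) and −0.52 in clone 2 (adjusted p = 0.00459), so 1 WT library decided whether it passed. A pseudogene named Ccnd3-ps held at most 7 counts.

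Set per exonic length, Ccnd1 made up most of the summed D-type level in every library and a smaller part of it in the knockout libraries. That length merges all annotated exons of a gene (4709 bases for Ccnd1, 9409 for Ccnd2 and 8775 for Ccnd3). The transcripts in use may be shorter, so the sizes of the shares, and which gene holds most, depend on it. Ccnd1 took 69.9% and 73.2% of the summed RPKM of the 3 genes in WT, 66.9% and 63.6% in clone 1, and 63.6% and 60.3% in clone 2. Its mean share was 7.98 percentage points lower in the knockout libraries, in 4 of 4 of which it lay below both WT values (exact two-sided permutation p = 0.0667, the smallest possible here, and 0.0667 adjusted). The share of Ccnd2 was 9.24% and 13.0% in WT and 13.9% to 21.4% in the knockout libraries, and that of Ccnd3 13.7% to 20.8% in WT and 15.1% to 20.02% in the knockout libraries. The sum of all 3 was 78.4 and 82.2 RPKM in WT, 74.1 RPKM in both clone 1 libraries, and 69.3 and 60.8 RPKM in clone 2.

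**Figure D2:**
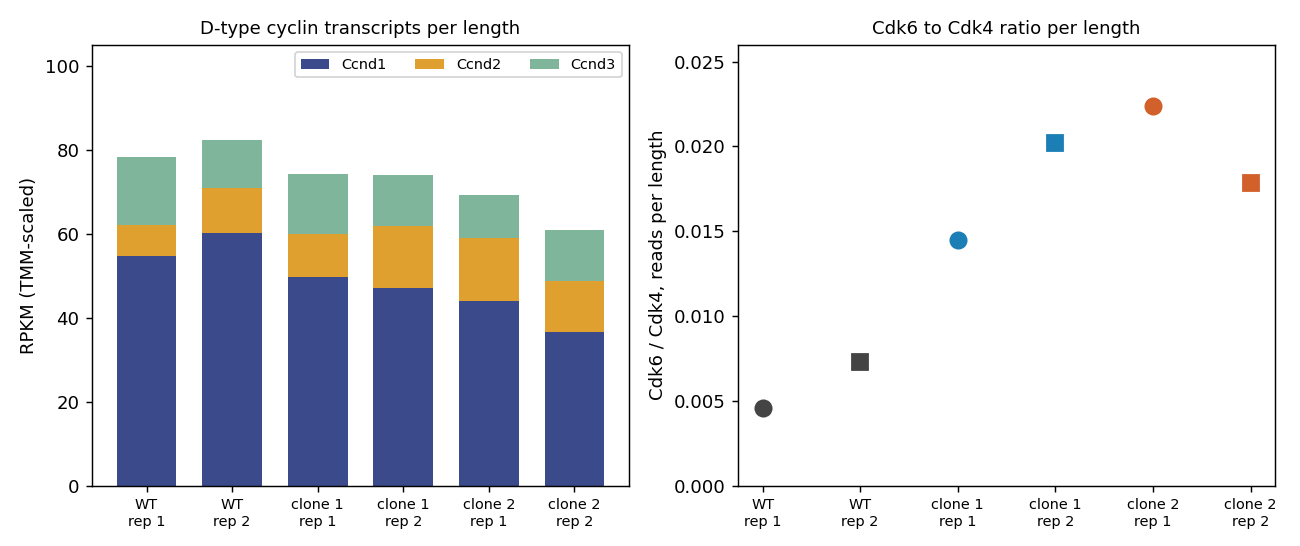
Left, RPKM of Ccnd1, Ccnd2 and Ccnd3 stacked for each of the 6 libraries (vertical axis from 0); right, the ratio of Cdk6 to Cdk4 reads per exonic length in each library (circles replicate 1, squares replicate 2; grey WT, blue clone 1, orange clone 2). The Ccnd1 part falls from 54.8 and 60.2 RPKM in WT to 36.7 to 49.6 RPKM in the knockout libraries, and the ratio is 0.0145 to 0.0224 in the knockout libraries and 0.00459 and 0.00731 in WT.

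The E-type cyclin genes did not pass in the knockout mean. Ccne1, the gene of cyclin E1 on chromosome 7 (38097984 to 38107534, ENSMUSG00000002068), had 92.8 and 67.1 CPM in WT, 96.5 and 86.0 in clone 1 and 70.7 and 72.4 in clone 2. The WT libraries spanned the clone 2 values and overlapped clone 1, and the change in the mean was 0.04 (95% interval −0.25 to 0.32, adjusted p = 0.863). In clone 1 it was called without WT replicate 1 (0.44, adjusted p = 0.0209). Ccne2, the gene of cyclin E2 on chromosome 4 (11191351 to 11204779, ENSMUSG00000028212), was much scarcer, with 7.87 and 7.30 CPM in WT, 9.69 and 14.001 in clone 1 and 9.74 and 9.57 in clone 2. All knockout libraries lay above WT, as for 25.1% of all genes tested, with clone 1 replicate 2 highest.

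For Ccne2 the change in the mean was 0.51 ± 0.21 and missed the threshold (adjusted p = 0.0719). It passed in clone 1 (0.65 ± 0.23, adjusted p = 0.0417) and not in clone 2 (0.37 ± 0.23, adjusted p = 0.264), and no difference between clones was detectable (−0.29, 95% interval −0.71 to 0.14, adjusted p = 0.556). Its counts were low, 29 and 81 in WT and 147 to 223 in the knockout libraries. Leaving out WT replicate 2 (0.59), clone 1 replicate 2 (0.37), or either clone 2 replicate 1 or clone 2 replicate 2 (0.65 in both) ended the clone 1 call, with adjusted p = 0.132, 0.315, 0.0581 and 0.0585, and so did DESeq2 (adjusted p = 0.0894). Ints8, which overlaps Ccne2 on the opposite strand, rose by 0.58 ± 0.15 in the mean (adjusted p = 0.00982). Ccne2 was called in the mean without clone 1 replicate 1 (0.63, adjusted p = 0.0196). Its longest transcript has 36.3% G and C, the lowest of the 10, and once GC content and length were corrected for, the mean value was 0.01 (adjusted p = 0.967) and the clone 1 value 0.19 (adjusted p = 0.514).

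Cdk2, the kinase that E-type cyclins activate, was slightly lower in each knockout library but did not pass. It lies on chromosome 10 (128697939 to 128705031, ENSMUSG00000025358) and had 71.1 and 67.9 CPM in WT, 63.0 and 53.6 in clone 1 and 63.9 and 58.2 in clone 2. The change in the mean was −0.22 ± 0.12, with a 95% interval of −0.47 to 0.04 (adjusted p = 0.173), and it was not called in any of the 19 alternatives. Of the 10 genes, 5 had knockout libraries that did not overlap WT: Ccnd1, Cdk2 and Cdk4 below and Ccne2 and Cdk6 above. In either direction this held for 49.8% of all genes tested.

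Cdkn1b, the gene of the inhibitor p27, rose in clone 2. It lies on chromosome 6 (134920401 to 134925513, ENSMUSG00000003031) and had 22.8 and 32.6 CPM in WT, 30.4 and 33.8 in clone 1 and 48.9 and 48.6 in clone 2. The clone 2 libraries lay above all others, while clone 1 overlapped WT. For how many of all genes clone 2 stood apart in this way was not counted. The log2 fold change was 0.77 ± 0.17 in clone 2 (adjusted p = 0.00422), called in all 18 alternatives, and 0.17 ± 0.17 in clone 1 (95% interval −0.20 to 0.53, adjusted p = 0.483). The difference between the clones, 0.60 ± 0.16, fell just short of the threshold (adjusted p = 0.0503) and passed in 9 of 18 alternatives. They include DESeq2 (0.60, adjusted p = 0.0428), limma-voom (0.61, adjusted p = 0.0296) and the fits without WT replicate 1 or WT replicate 2 (0.61 in each, adjusted p = 5.78e-04 and 5.70e-04).

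The value of Cdkn1b for the mean of both clones, 0.47 ± 0.15 (adjusted p = 0.0265), averages 0.77 and 0.17. Leaving out WT replicate 1 (0.28), clone 1 replicate 2 (0.42), clone 2 replicate 1 (0.47) or clone 2 replicate 2 (0.47) ended the call, with adjusted p = 0.207, 0.0614, 0.0637 and 0.0579. It was also lost with 2 groups (0.51, adjusted p = 0.124) and once GC content and length were corrected for (0.22, adjusted p = 0.143). In clone 2 the smooth muscle markers also stood apart from all other libraries, at 155 to 166 CPM in sum, and their part in the rise was not tested.

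Rb1, whose protein restrains E2F factors until G1 kinases phosphorylate it, was the scarcest of the 10. It lies on chromosome 14 (73183673 to 73325822, ENSMUSG00000022105) and had 11 and 52 counts in the WT libraries and 69 to 78 in the knockout libraries. These correspond to 2.98 and 4.68 CPM in WT, 3.53 and 4.90 in clone 1 and 4.25 and 4.56 in clone 2. The WT libraries spanned nearly all of the others. The change in the mean was 0.05 with a 95% interval of −0.49 to 0.59 (adjusted p = 0.908), which leaves room for a change in either direction.

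The order of levels per exonic length was nearly the same in all groups. It depends on the lengths used, which merge all annotated exons of a gene. In WT it ran from Cdk4 (330.2 ± 47.4 RPKM, SD, n = 2) through Ccnd1 (57.5 ± 3.83), Ccne1 (30.04 ± 6.82), Ccnd3 (13.8 ± 3.57), Cdk2 (11.2 ± 0.360), Ccnd2 (8.98 ± 2.46), Cdkn1b (6.09 ± 1.53), Ccne2 (2.17 ± 0.116) and Cdk6 (1.92 ± 0.355) to Rb1 (0.638 ± 0.200 RPKM). Ccnd3 and Cdk2 overlapped in WT, as did Ccne2 and Cdk6, and all other neighbours were apart. In clone 1 Ccnd2 stood above Cdk2, and Ccnd3 overlapped Ccnd2. In clone 2 Ccnd2 (13.4 ± 2.01 RPKM), Ccnd3 (11.3 ± 1.23) and Cdkn1b (10.7 ± 0.0486) formed an overlapping series above Cdk2, and Cdk6 (4.11 ± 0.469) passed Ccne2 (2.76 ± 0.0342) without overlap.

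The chromosomes of these genes differed in their typical change, so each value stands beside those of its neighbours on the chromosome. Genes of chromosome 7 had a median log2 fold change of −0.27 in clone 1 and −0.26 in clone 2, and the 71 tested genes within 5 Mb of Ccnd1 had medians of −0.64 and −0.62. Ccnd1 itself, at −0.25 and −0.51, fell less than the median of that neighbourhood in both clones. With scaling factors set for each chromosome separately its change in the mean was −0.11 (adjusted p = 0.490), in clone 1 0.04, and in clone 2 −0.26 (adjusted p = 0.184), none of them called. Ccne1, on the same chromosome, came to 0.50 in clone 1 under that scaling and was called there (adjusted p = 0.0248), whereas its 40 neighbours within 5 Mb had medians of −0.13 and −0.15.

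On chromosome 4 the median was −0.37 in clone 1 and −0.36 in clone 2, while the 33 genes within 5 Mb of Ccne2 were at 0.01 and −0.02. Per-chromosome scaling brought Ccne2 to 0.88 in the mean, where it was called (adjusted p = 0.0120). On chromosome 10 the median was −0.13 in clone 1 and −0.09 in clone 2. The 87 genes within 5 Mb of Cdk4 had medians of −0.29 and −0.40 and the 81 near Cdk2 medians of −0.30 and −0.41. Cdk4 lay below its neighbourhood, Cdk2 above it, and with per-chromosome scaling Cdk4 remained called at −0.64 (adjusted p = 0.00189).

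Cdk6 lay far above both its chromosome (medians 0.09 and 0.13) and its 25 neighbours within 5 Mb (0.14 and 0.17), and was 0.80 under per-chromosome scaling (adjusted p = 0.00514). Chromosome 6, which carries Ccnd2 and Cdkn1b, had a median of −0.15 in clone 1 and 0.03 in clone 2. Genes within 5 Mb had medians of −0.27 and −0.09 for Ccnd2 and of −0.15 and 0.06 for Cdkn1b. Ccnd2 and Cdkn1b remained called in the mean under per-chromosome scaling, at 0.57 (adjusted p = 0.0403) and 0.53 (adjusted p = 0.0201). Ccnd2 then passed in clone 1 (0.64, adjusted p = 0.0445) and not in clone 2 (0.50, adjusted p = 0.111). Ccnd3 was at −0.05 and −0.27, chromosome 17 at 0.11 and −0.09, and its neighbours within 5 Mb at −0.06 and −0.33. Rb1 was at 0.01 and 0.08, chromosome 14 at 0.14 and 0.17, and its neighbours at 0.07 and 0.11. The part of chromosome-wide differences in single genes was not tested further.

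**Figure D3:**
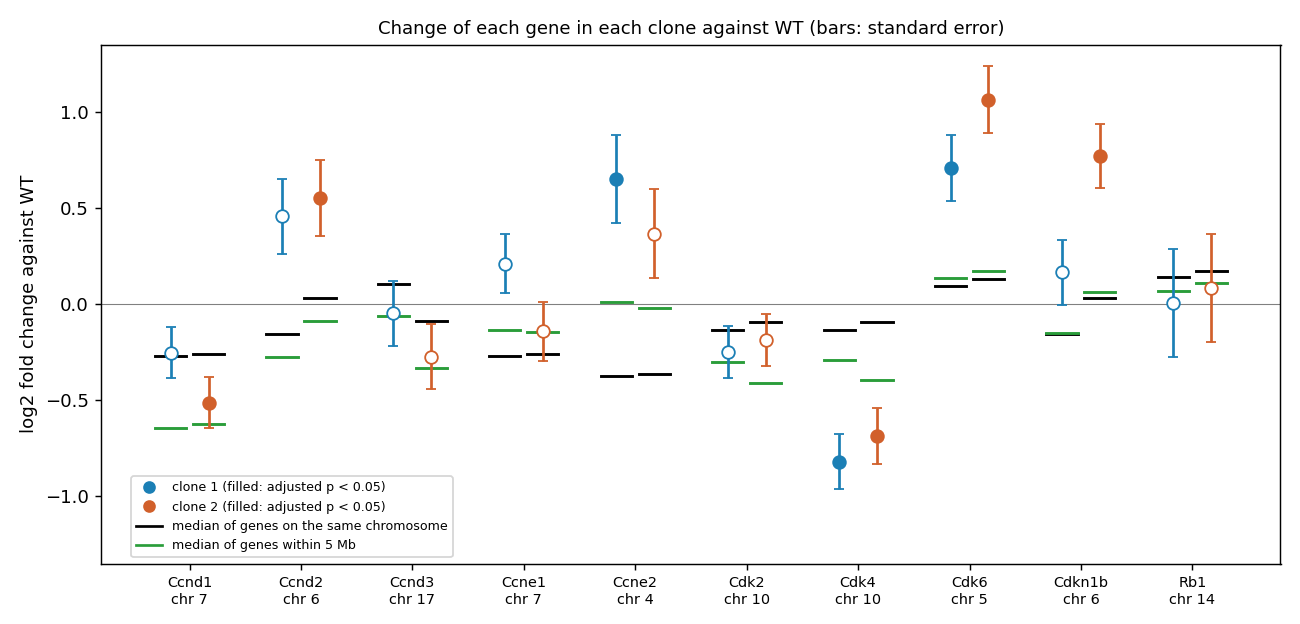
Log2 fold change (vertical axis) of each gene in clone 1 (blue) and clone 2 (orange) against WT with its standard error, filled where the adjusted p was below 0.05; black lines are the median of tested genes on the same chromosome and green lines that of genes within 5 Mb. Cdk6 (0.71 and 1.06) and Cdk4 (−0.82 and −0.69) lie outside both medians in both clones, while Ccnd1 lies above the green lines at −0.64 and −0.62.

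GC content and length also moved some of the values. Cdk6 has the longest exonic sequence of the 10 (13989 bases, with 45.1% G and C in its longest transcript) and Cdk4 one of the shorter (3249 bases, 53.3%). After correction for both properties Cdk6 was at 0.67 (adjusted p = 4.76e-04) and Cdk4 at −0.60 (adjusted p = 0.00108) in the mean, smaller than before and still called. Ccnd1 (−0.28, adjusted p = 0.0464) and Ccnd2 (0.42, adjusted p = 0.0237) kept their calls as well, and Rb1 came to −0.25, uncalled as before (adjusted p = 0.382).

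**Figure D4:**
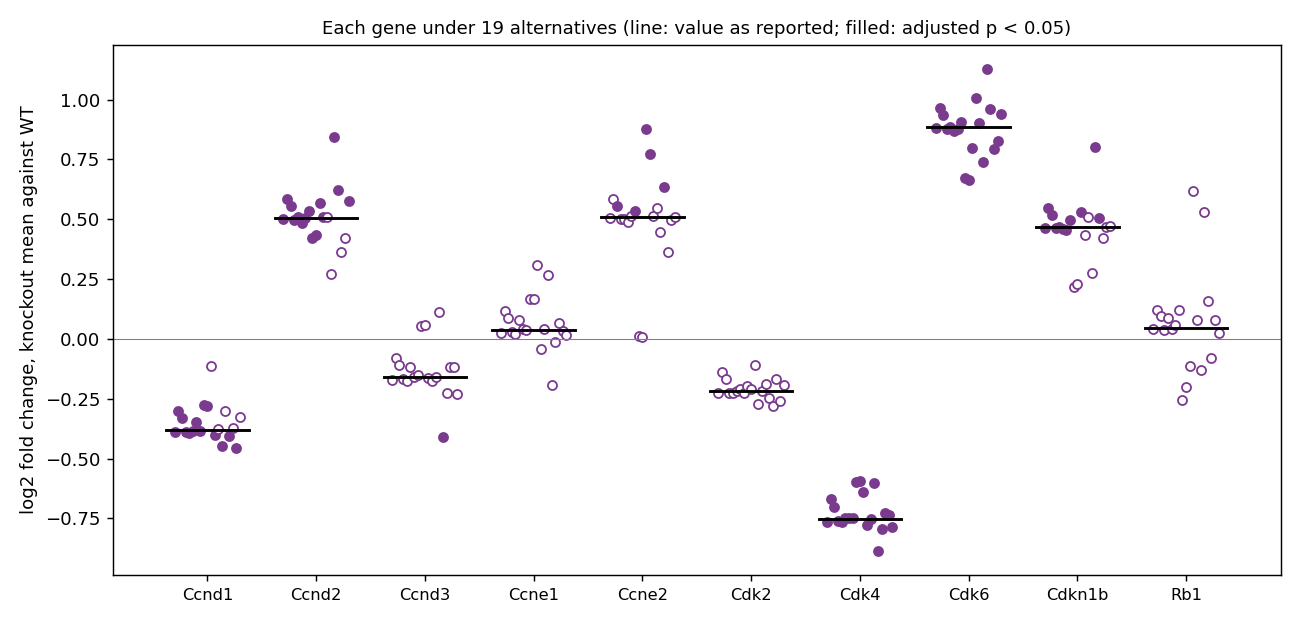
Log2 fold change of each gene in the knockout mean (vertical axis) under each of 19 alternative analyses, filled where the adjusted p was below 0.05; black lines are the values as reported. All points of Cdk4 (−0.89 to −0.59) and Cdk6 (0.67 to 1.13) are filled, whereas Ccnd1, Ccnd2 and Cdkn1b have open points too.

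Of the 6 other genes of G1 inhibitors, 3 had too few counts to be tested. Cdkn2a (Ink4a and Arf) and Cdkn2b (Ink4b), which neighbour each other in the genome, had 0 counts in all 6 libraries, where 3 counts would have been 0.152 to 0.775 CPM on library totals. Cdkn1c, the gene of p57, had 0 to 4 counts. Cdkn1a, the gene of p21, moved in opposite directions in the clones. It had 92.3 and 94.7 CPM in WT, 139 and 140 in clone 1 and 68.6 and 68.2 in clone 2, without any overlap between the 3 groups. How many of all genes separate the 3 groups was not counted.

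Cdkn1a rose by 0.58 ± 0.12 in clone 1 (adjusted p = 0.00266) and fell by 0.45 in clone 2 (SE 0.12, adjusted p = 0.0144). The fall was not called on leaving out clone 2 replicate 1 (−0.47) or clone 2 replicate 2 (−0.46), with adjusted p = 0.118 and 0.110, nor with GC content and length corrected (−0.23, adjusted p = 0.133). The difference between clones was −1.03 ± 0.12 (adjusted p = 1.31e-04), and the mean of both clones was 0.06 (adjusted p = 0.682). Clone 1, with more Cdkn1a, had Cdkn1b near WT, and clone 2, with less Cdkn1a, had more Cdkn1b. Cdkn2c (Ink4c) fell by 0.34 (SE 0.11, adjusted p = 0.0279) and Cdkn2d (Ink4d) by 0.46 (SE 0.15, adjusted p = 0.0324) in the mean. In clone 1 they were at −0.49 (adjusted p = 0.00943) and −0.71 (adjusted p = 0.00785), and in clone 2 they did not pass, at −0.18 (adjusted p = 0.309) and −0.20 (adjusted p = 0.416). In clone 1 neither was called on leaving out clone 1 replicate 2 (−0.42, adjusted p = 0.105, for Cdkn2c and −0.59, adjusted p = 0.0650, for Cdkn2d). Between clones Cdkn2d did not pass (0.50, adjusted p = 0.130) but was called in 4 of 18 alternatives, those without WT replicate 1 or WT replicate 2 (adjusted p = 0.0170 and 0.0171) among them. Both genes encode inhibitors of CDK4 and CDK6, and their calls in the mean were fragile, holding in 8 and 10 of 19 alternatives.

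Cdkn2c, on chromosome 4, came to 0.034 with scaling per chromosome (adjusted p = 0.828) and was called, among the fits that left out 1 library, only in the one without clone 1 replicate 1. It was at −0.32 without WT replicate 1, −0.35 without WT replicate 2, −0.31 without clone 1 replicate 2, −0.36 without clone 2 replicate 1 and −0.33 without clone 2 replicate 2 (adjusted p = 0.0612 to 0.0979). For Cdkn2d, leaving out WT replicate 1 (−0.30), clone 1 replicate 2 (−0.40) or clone 2 replicate 1 (−0.43) ended the call. Of the 3 inhibitors tested, 0 were called higher and 2 lower in the mean, beside 16.6% and 18.2% of all genes tested.

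In the lists of targets and partners of the G1 kinases, calls went both ways. Of 11 tested pocket proteins, E2F and DP factors, 2 were called higher and 1 lower (median 0.10). Rbl1, which encodes the Rb relative p107, rose by 0.72 ± 0.16 (adjusted p = 0.00391), and E2f2, an activating E2F, fell from 10.6 and 8.20 CPM in WT to 4.01 to 4.69 CPM (−1.05 ± 0.20, adjusted p = 0.00118). E2f5, a repressive E2F, rose by 0.53 ± 0.17 (adjusted p = 0.0252) and lost its call on leaving out WT replicate 1 (0.39), clone 2 replicate 1 (0.55) or clone 2 replicate 2 (0.53). E2f6 is listed at 0 counts in all libraries. Of 6 genes of the MuvB core and its partners, which repress cell cycle genes in resting cells and, with MYBL2, activate them in dividing cells, 2 were called higher and 1 lower (median 0.0033). All these counts stand beside 16.6% of all genes tested higher and 18.2% lower.

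Lin9 rose by 0.74 ± 0.21 (adjusted p = 0.0138) and Lin54 by 0.48 ± 0.15 (adjusted p = 0.0257), and Lin37 fell by 0.52 (SE 0.15, adjusted p = 0.0162). The Lin9 call ended in libraries thinned to equal depth (0.57, adjusted p = 0.101) and with the replicate block and GC content and length correction together (0.49, adjusted p = 0.0575). The Lin54 call ended on leaving out WT replicate 1 (0.40), clone 1 replicate 2 (0.39) or clone 2 replicate 2 (0.44), and that of Lin37 on leaving out WT replicate 2 (−0.47) or clone 2 replicate 1 (−0.46). Correction for GC content and length ended the calls of Lin54 (0.18, adjusted p = 0.279) and Lin37 (−0.35, adjusted p = 0.0596), and scaling per chromosome brought Lin37, on chromosome 7, to −0.26 (adjusted p = 0.207). Among 10 tested genes of CDK activation and other cyclins and kinases, 3 were called higher and 1 lower (median 0.15). Of all genes tested, 16.6% were called higher and 18.2% lower. Ccng1, a cyclin G gene induced by p53, rose by 0.75 ± 0.13 (adjusted p = 7.25e-04), and Cdk8, a kinase of the Mediator complex, by 0.70 ± 0.18 (adjusted p = 0.00764). The other riser was Ccna2, cyclin A2 (0.45 ± 0.11, adjusted p = 0.00628), named after its value was seen. Cdk7, the catalytic subunit of the CDK-activating kinase, fell by 0.46 (SE 0.13, adjusted p = 0.0138), a call lost without clone 2 replicate 2 (−0.43) and with scaling per chromosome (−0.16, adjusted p = 0.363).

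Of 16 E2F targets of the G1/S transition, 4 were called higher and 2 lower in the mean (median 0.09), beside 16.6% and 18.2% of all genes tested. In clone 1 these counts were 3 and 3, beside 15.2% and 16.5% of all genes tested. In clone 2 they were 1 and 2, beside 12.9% and 14.5%. Tk1, thymidine kinase, rose by 0.54 ± 0.12 (adjusted p = 0.00397) and Rrm2, a subunit of ribonucleotide reductase, by 0.48 ± 0.12 (adjusted p = 0.00712). Cdt1, which loads the replicative helicase, fell by 0.58 (SE 0.13, adjusted p = 0.00319). The other risers, named after their values were seen, were Pcna, the sliding clamp of DNA replication (0.43 ± 0.11, adjusted p = 0.00995), and Rrm1, the partner of Rrm2 (0.32 ± 0.12, adjusted p = 0.0458). The Rrm2 value averages 0.72 in clone 1 (adjusted p = 0.00125) and 0.23 in clone 2, which did not pass (adjusted p = 0.220). Clone 2 minus clone 1 was −0.49 for Rrm2 (adjusted p = 0.0600), and 6 alternatives called it, including DESeq2 (adjusted p = 0.0320), limma-voom (adjusted p = 0.0409) and the fits without WT replicate 1 or WT replicate 2 (adjusted p = 0.00244 and 0.00216). In the mean Rrm2 lost its call on leaving out WT replicate 2 (0.33, adjusted p = 0.0771), with scaling per chromosome (0.22, adjusted p = 0.208) and with GC content and length corrected (0.32, adjusted p = 0.0731).

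In the lists on the turnover of p27 and of the cyclins, calls were again to be read against 16.6% of all genes higher and 18.2% lower. Of 9 genes of p27 turnover and transcription, 2 were called higher and 0 lower (median −0.10). Skp2, the ubiquitin ligase subunit that targets p27, had 39.6 and 41.0 CPM in WT and 49.7 to 62.8 CPM in the knockout libraries (0.43 ± 0.13, adjusted p = 0.0219), a call lost without clone 2 replicate 1 (0.33, adjusted p = 0.118) and once GC content and length were corrected for (0.25, adjusted p = 0.139). Uhmk1, a kinase that phosphorylates p27, rose from 28.8 and 43.6 CPM to 69.4 to 98.8 CPM (1.13 ± 0.18, adjusted p = 3.14e-04). Of 10 genes of cyclin D and E turnover, 1 was called higher and 3 lower (median 0.03).

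Cul3, the scaffold of a ubiquitin ligase that acts on cyclin E, rose from 13.3 and 15.4 CPM to 25.5 to 42.8 CPM (1.17 ± 0.21, adjusted p = 7.35e-04). Usp2, a protease that removes ubiquitin from cyclin D1, fell from 11.1 and 16.2 CPM to 4.43 to 7.32 CPM (−1.29 ± 0.20, adjusted p = 2.26e-04). Fbxo31, an F-box gene tied to cyclin D1 turnover, fell by 0.51 (SE 0.13, adjusted p = 0.00778) and was not called once both properties were corrected for (−0.24, adjusted p = 0.100). The other faller, named after its value was seen, was Usp28, also a deubiquitinase (−0.51 ± 0.17, adjusted p = 0.0315). Uhmk1, Cul3 and Usp2 were called in all 19 alternatives.

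Upstream of the D-type cyclins, 2 of 17 tested genes of mitogen signalling were called higher and 6 lower (median −0.12), beside 16.6% and 18.2% of all genes tested. In clone 1 these counts were 1 and 5, beside 15.2% and 16.5% of all genes tested. In clone 2 they were 2 and 5, beside 12.9% and 14.5%. The growth factor receptor gene Pdgfra fell by 0.89 (SE 0.16, adjusted p = 8.38e-04) and the small GTPase gene Hras, on chromosome 7, by 0.74 (SE 0.14, adjusted p = 0.00106), while Nras, also a small GTPase gene, rose by 0.50 ± 0.12 (adjusted p = 0.00480). Once GC content and length were corrected for, Nras was not called (0.21, adjusted p = 0.148). The other 4 that fell, Igf1r (−0.63), Fgfr1 (−0.46), Mapk3 (−0.45) and Myc (−0.42), had adjusted p = 5.18e-04 to 0.00922 and, but for Fgfr1, were named after their values were seen. In the mean Fgfr1 lost its call on leaving out WT replicate 2 (−0.37, adjusted p = 0.0629) and with 2 groups (−0.43, adjusted p = 0.110). Against WT it was at −0.75 in clone 2 (adjusted p = 9.80e-04) and at −0.18 in clone 1, where it did not pass (adjusted p = 0.321). Fgfr1, a growth factor receptor gene, differed between clones by −0.58 ± 0.13 (clone 2 minus clone 1, adjusted p = 0.0203), with 71.9 and 80.4 CPM in WT, 69.9 and 65.4 in clone 1 and 46.7 and 44.1 in clone 2. That call ended on leaving out any 1 of the 4 knockout libraries (−0.62 to −0.54).

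**Figure D5:**
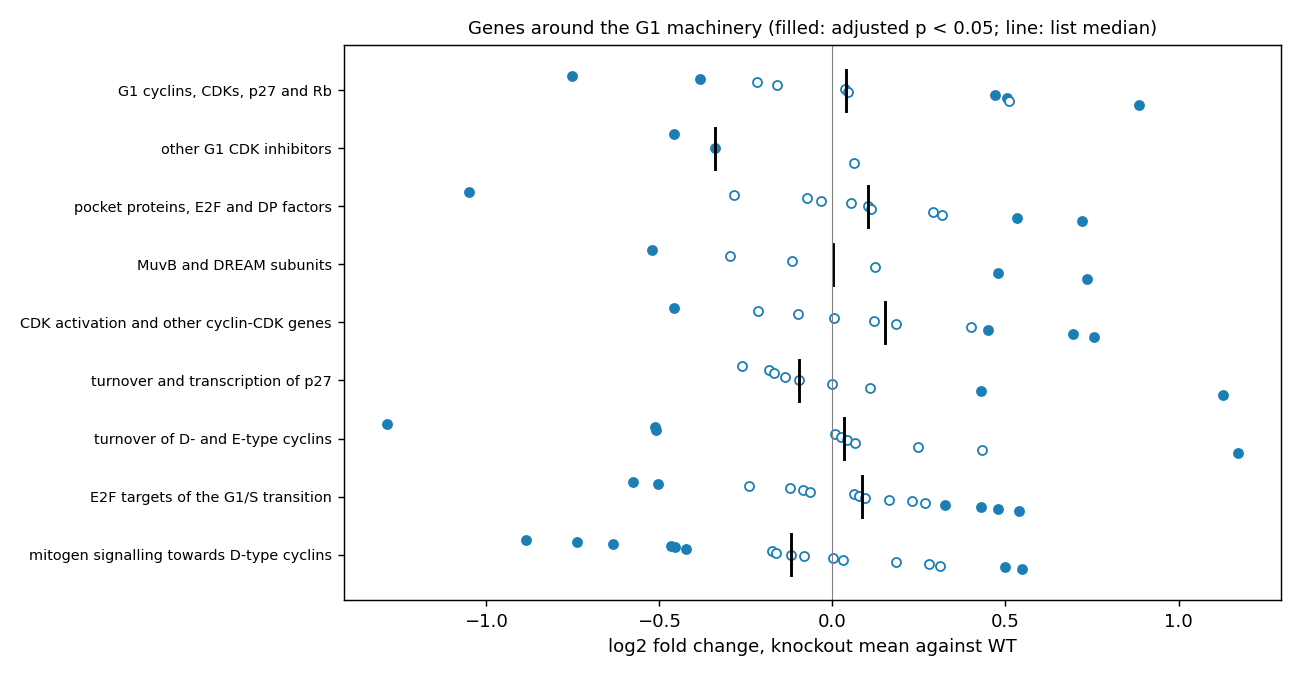
Log2 fold change in the knockout mean (horizontal axis) of every tested gene in the 10 genes described and in the 8 surrounding lists, 1 row per list; points are genes, filled where the adjusted p was below 0.05, and black lines are list medians. Most lists scatter to both sides of 0, with medians between −0.34 for other CDK inhibitors and 0.15 for CDK activation.

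The genes whose profile over the 6 libraries came closest to those of Cdk6 and Cdk4 were sought by the root mean square difference of centred log2 CPM among 11286 protein-coding genes. For Cdk6 they were Nedd1 (0.0470), Tsc22d2 (0.0488) and Dop1a (0.0521), on chromosomes 10, 3 and 9. For Cdk4 they were Plpp2 (0.0226), Pip5k1c (0.0288) and Ap2a2 (0.0355), the first pair on chromosome 10 like Cdk4 and the last on chromosome 7. Their changes in the knockout mean were 0.84 to 0.93 for the Cdk6 group and −0.75 to −0.70 for the Cdk4 group. Cdk6 and Cdk4 themselves were at 0.89 and −0.75. Genes picked for a like profile over these 6 libraries must change alike, so the likeness of these values is no separate result.

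Between the clones, 0 of the 10 genes were called with edgeR, where 3.54% of all genes tested passed. By direction that was 1.18% higher and 2.36% lower in clone 2. At an unadjusted p below 0.05 were 3 of the 10 (Ccne1 at −0.35, Cdk6 at 0.36 and Cdkn1b at 0.60), beside 2030 of all 13120 genes. DESeq2 and limma-voom called Cdkn1b. In clone 1 against WT, 3 of the 10 were called (Cdk6 and Ccne2 higher, Cdk4 lower), beside 31.7% of all genes (15.2% higher, 16.5% lower). In clone 2 against WT, 5 were called (Cdk6, Ccnd2 and Cdkn1b higher, Cdk4 and Ccnd1 lower), beside 27.4% (12.9% higher, 14.5% lower). Both clones are compared with the same WT libraries, so these counts are not independent of each other.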

How the data were processed

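RNA depleted of ribosomal RNA was made into stranded libraries, per the labels' protocols, and per the submitters' processing notes reads were checked with FastQC and aligned with STAR 2.6.0c to GRCm38. The authors deposited unnormalised counts per gene for 3 strand settings, in STAR's layout. The annotation release was not given in the sources used here. Reverse-strand counts were used. Rows naming no gene (46.6% to 50.5% of reads) stayed out of library sizes. Reads with several hits are in those rows, so genes with near-identical copies are less certain. Symbols, positions and exonic lengths came from GENCODE M21 (GRCm38), matching 54079 of 54146 identifiers.

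Genes were kept by filterByExpr (minimum count 10), leaving 13120, scaled by TMM (0.951 to 1.03) and fitted with edgeR 4.0.16 in R 4.3.3 by quasi-likelihood with 1 coefficient per group (3 residual degrees of freedom). Calls required a Benjamini-Hochberg adjusted p below 0.05 over all genes, and intervals used the fit's moderated degrees of freedom. Alternatives used DESeq2 1.42.0, limma 3.58.1 and other settings. Steps were tested on simulated counts. Floors cover counting error only. Replicates of a group differed beyond sampling noise (chi-square per degree of freedom 13.6 to 22.2).

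Named were Mki67, the 10 members, up to 2 genes per direction of each of 8 lists, up to 2 called between clones, genes at 0 and the 3 most alike in profile to the largest rise and fall. Overlapping genes were named by position. Members and lists were chosen with earlier results of these data known. Some genes that this rule names are not reported here.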

Additional observations from a re-analysis of the deposited data

Results flagged for a closer look

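The change of Cdkn1a, the gene of the inhibitor p21, differed between the clones (clone 2 minus clone 1 −1.03 on the log2 scale, edgeR adjusted p = 1.31e-04). It was 139 and 140 CPM in clone 1, above WT at 92.3 and 94.7 CPM, and 68.6 and 68.2 CPM in clone 2, below WT. Fgfr1, a fibroblast growth factor receptor gene, was lower in clone 2 than in clone 1 by 0.58 (log2 value −0.58, adjusted p = 0.0203). Leaving out clone 1 replicate 1 (−0.54), clone 1 replicate 2 (−0.62), clone 2 replicate 1 (−0.62) or clone 2 replicate 2 (−0.54) ended that call, with adjusted p = 0.176, 0.0757, 0.164 and 0.310.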

How the results depend on the processing

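Between the clones, 465 genes were called in the fit as reported, 813 without a low-count filter, 833 after correction for GC content and length, 788 with that correction and the replicate block, and 193 with libraries thinned to equal depth. Leaving out 1 library gave 156 to 1207 there, 2205 to 4348 in clone 1, 1668 to 4010 in clone 2 and 3359 to 4449 in the knockout mean. In these fits the group with 1 library was assumed to vary like the others. Of the 10 G1 genes, leaving out 1 library left 2 to 6 called in the mean, 1 to 4 in clone 1, 3 to 6 in clone 2 and 0 to 1 between clones. With 2 groups 2 were called in the mean, beside 3488 of all 13120 genes tested. Scaling per chromosome gave 5 in clone 1 and 3 in clone 2, beside 3333 and 2768 of all 13120 genes tested. Between clones 1 was called, Cdkn1b, without a low-count filter, with DESeq2, limma-voom, unstranded counts, the replicate block, GC content and length correction, or both of the last. In those fits 379 to 833 of the 13120 to 25934 genes tested were called between clones. Cdkn2c turned to 0.034 with scaling per chromosome. The cause was not tested. Over all contrasts and alternatives, 668 of 730 values of the 10 genes stayed on the same side of the threshold in the same direction or uncalled, 38 lost and 24 gained a call.

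Replicate numbers did not pair the libraries by any label, and deviations of same-numbered libraries correlated at 0.24, −0.08 and −0.10 across genes. With the replicate block, 4874 genes were called in the mean, 4447 in clone 1, 3955 in clone 2 and 635 between clones. Without 1 library, the Cdk6 to Cdk4 log2 ratio difference was 1.34 to 2.01 and the Ccnd1 share difference −9.64 to −6.32 percentage points. In both, WT and knockout libraries did not overlap, so leaving 1 out could not turn the direction. At 11 and 52 counts in WT, Rb1 left a 95% interval of −0.49 to 0.59.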
